A study of Mus musculus with 6 samples.

Results

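The genes described here are 29 genes of fatty acid oxidation and of the response to PPAR, the peroxisome proliferator-activated receptors. They were taken by gene name from a deposited table of 54532 genes, and each name matched 1 row. Colon RNA was sequenced from C57BL/6 mice at postnatal day 56, in 3 libraries labelled wild type (WT) and 3 labelled IL10-/- (IL10-KO). Interleukin 10 restrains immune responses, and mice lacking it serve as a colitis model. The sources used here give neither the knockout allele, nor the stretch of colon taken, nor the number of mice behind a group. The p-values therefore cover only the spread from library to library, which may be technical.

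Fatty acids are a main fuel of colonocytes, which burn butyrate made by gut bacteria. Long chains enter mitochondria as carnitine esters, lose a pair of carbons per round of beta-oxidation, and pass electrons to the respiratory chain through the electron transfer flavoprotein. PPAR proteins pair with RXR, bind DNA at direct repeats of a hexamer spaced by 1 base, and raise transcription of many of these enzymes. They respond to fatty acids and their derivatives.

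Levels are in FPKM (fragments relative to gene length and a library size), the deposited unit. The whole reads they stand for summed to between 13107941 and 15797928 a library, of which mitochondrially encoded genes took 8.61% to 43.4%, most in WT library 3. The library size implied by the values was 0.836 times these reads in WT library 2 and 1.23 times in WT library 1, the extremes. Levels in WT library 2 are therefore scaled up relative to its reads. Il10 itself read 0.173 to 0.757 FPKM in WT but 10.6 to 14.5 FPKM in the libraries labelled IL10-KO (log2 fold change 3.36, adjusted p = 0.0092 in limma). Reads over a whole gene do not show whether a deleted part is missing, so IL10-KO names the label throughout. Epithelial markers were abundant in each library, with the 12 listed genes summing to 2866 to 15607 FPKM in WT and 10785 to 16168 FPKM in IL10-KO, led by the keratins Krt8 and Krt19. The 10 smooth muscle markers, led by Acta2 and Actg2, summed to 1306 to 9113 FPKM in WT and to 183 to 1040 FPKM in IL10-KO. WT library 3 and IL10-KO library 2 were the extremes. For 9 of these markers (90.0%) all IL10-KO libraries were below all WT libraries, against 7.89% of all tested genes. Limma called 0 of them. In bulk tissue, fewer cells of a type and less RNA per cell cannot be told apart. Gapdh, which has many processed copies in the mouse genome, was at 70.9 FPKM in WT library 2 and at 3.45 to 6.80 FPKM in the other 5 libraries. How reads with several matches were handled is not given in the sources used here, and values of genes with close copies are uncertain.

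The PPAR element was looked for first in the RefSeq promoter windows (GRCm38.p6, 250 bases before to 50 after the start), which matched 25 of the 29 genes. Angptl4, Vnn1, Acaa2 and Decr1 had no entry. The motif searched was the direct repeat of AGGTCA spaced by 1 base of any kind, on both strands, counted by mismatches in its 12 fixed letters. With at most 1 mismatch it lay in 2 of the 25 genes (8.0%) against 174 of 27025 genes with a window (0.644%), and with at most 2 mismatches in 6 of 25 (24.0%) against 1190 (4.40%). Of the 76 wider pathway genes with a window, 0 had it with at most 1 mismatch and 8 (10.5%) with at most 2. The 250 bases before the start are shown for the 2 closest matches and for Cd36 and Plin2, whose levels are described below, with the motif match in capitals, read 5′ to 3′ on the strand of the gene.
Fabp1: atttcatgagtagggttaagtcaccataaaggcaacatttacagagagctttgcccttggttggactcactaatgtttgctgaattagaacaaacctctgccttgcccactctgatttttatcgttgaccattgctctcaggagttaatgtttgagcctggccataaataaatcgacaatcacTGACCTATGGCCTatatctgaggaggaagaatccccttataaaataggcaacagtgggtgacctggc
Acot12: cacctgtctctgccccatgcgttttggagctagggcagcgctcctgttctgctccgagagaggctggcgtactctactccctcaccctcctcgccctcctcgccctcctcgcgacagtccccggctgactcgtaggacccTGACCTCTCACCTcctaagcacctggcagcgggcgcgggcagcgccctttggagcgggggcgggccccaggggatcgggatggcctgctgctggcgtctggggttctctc
Cd36: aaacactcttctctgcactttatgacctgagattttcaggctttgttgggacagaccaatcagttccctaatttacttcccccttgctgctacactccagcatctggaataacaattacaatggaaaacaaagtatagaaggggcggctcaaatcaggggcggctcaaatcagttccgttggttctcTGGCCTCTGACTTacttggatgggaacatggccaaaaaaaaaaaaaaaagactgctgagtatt
Plin2: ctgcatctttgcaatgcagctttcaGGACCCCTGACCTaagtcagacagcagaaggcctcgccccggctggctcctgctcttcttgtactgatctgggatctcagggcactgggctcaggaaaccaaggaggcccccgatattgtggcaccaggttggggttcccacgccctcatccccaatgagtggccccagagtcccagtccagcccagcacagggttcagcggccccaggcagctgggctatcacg
These are chr6:71199629-71199878 (plus strand), chr13:91741271-91741520 (plus), chr5:17835897-17836146 (minus) and chr4:86670060-86670309 (minus). All 4 matches lie on the opposite strand of the gene, so the capitals show the reverse complement of the motif. The Fabp1 match spans bases 67 to 55 before the start and that of Acot12 bases 110 to 98. The Cd36 match spans bases 63 to 51, and that of Plin2 bases 225 to 213. The closest matches belonged to the members with the fewest reads, as given below. Etfa and Acox2 completed the 6. The RefSeq start of Cd36 lies inside the gene span of the deposited table, and that of Fabp1 lies inside its gene as well. A match is a description of letters and no evidence of binding in this tissue.

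No member was called between the genotypes. Of the 29 genes, 24 had a mean of at least 1 FPKM and were tested, and limma with Benjamini-Hochberg adjustment over 12668 genes called 0 of them at 0.05. In the same fit 23 genes of the table were called, all higher in IL10-KO, which is 0.182% of those tested (lower in IL10-KO, 0%). At an unadjusted p under 0.05 there was 1 member, Cd36, or 4.17% of 24, against 10.2% of all tested genes. voom on the recovered reads also called 0 members, against 0.0158% of all tested genes, with 1 member at an unadjusted p under 0.05. The median log2 fold change (IL10-KO minus WT, taken from log2(FPKM + 1), so changes of low genes are understated) was -0.22 over the 24 members and 0.04 over all tested genes. It was 0.86 over the 12 epithelial markers and -2.13 over the 10 smooth muscle markers. With no filter on level, 8 of the 29 were higher and 21 lower in IL10-KO, with a median of -0.21.

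Most members had their highest level in the same library. WT library 2 had the highest FPKM of all 6 libraries for 24 of the 29 genes, and for 21 of the 24 tested (87.5%), against 29.9% of all tested genes. It was also highest for 91.7% of 12 nuclear-encoded respiratory chain and citrate cycle genes, for 70.0% of 10 surface colonocyte markers and for 6 of 12 epithelial markers, so the lead of this library was not particular to the members. Its level divided by the median of the other 5 libraries had a median of 3.46 over the tested members, 5.27 over the surface colonocyte markers, 4.73 over the 5 tested small intestinal enterocyte markers, 1.504 over the epithelial markers, 1.53 over the respiratory chain and citrate cycle genes and 1.04 over all tested genes. Against the middle IL10-KO library, WT library 2 stood at a median of 3.17 times for the members, 5.99 times for the surface colonocyte markers and 1.17 times for the epithelial markers. The parts of cell composition and of the scaling per library in these levels were not tested. IL10-KO library 1 came second for 17 of the 24 (70.8%, against 21.1% of all tested genes). It also came second for 70.0% of the surface colonocyte markers and 43.4% of the tested wider pathway genes. For the epithelial markers and for the respiratory chain and citrate cycle genes the share was 33.3% each. The exceptions to the lead of WT library 2 among tested genes were Ppargc1a and Cd36, highest in WT library 1, and Acadl, highest in IL10-KO library 1. These patterns were noticed in the data and are given as descriptions.

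**Figure D1:**
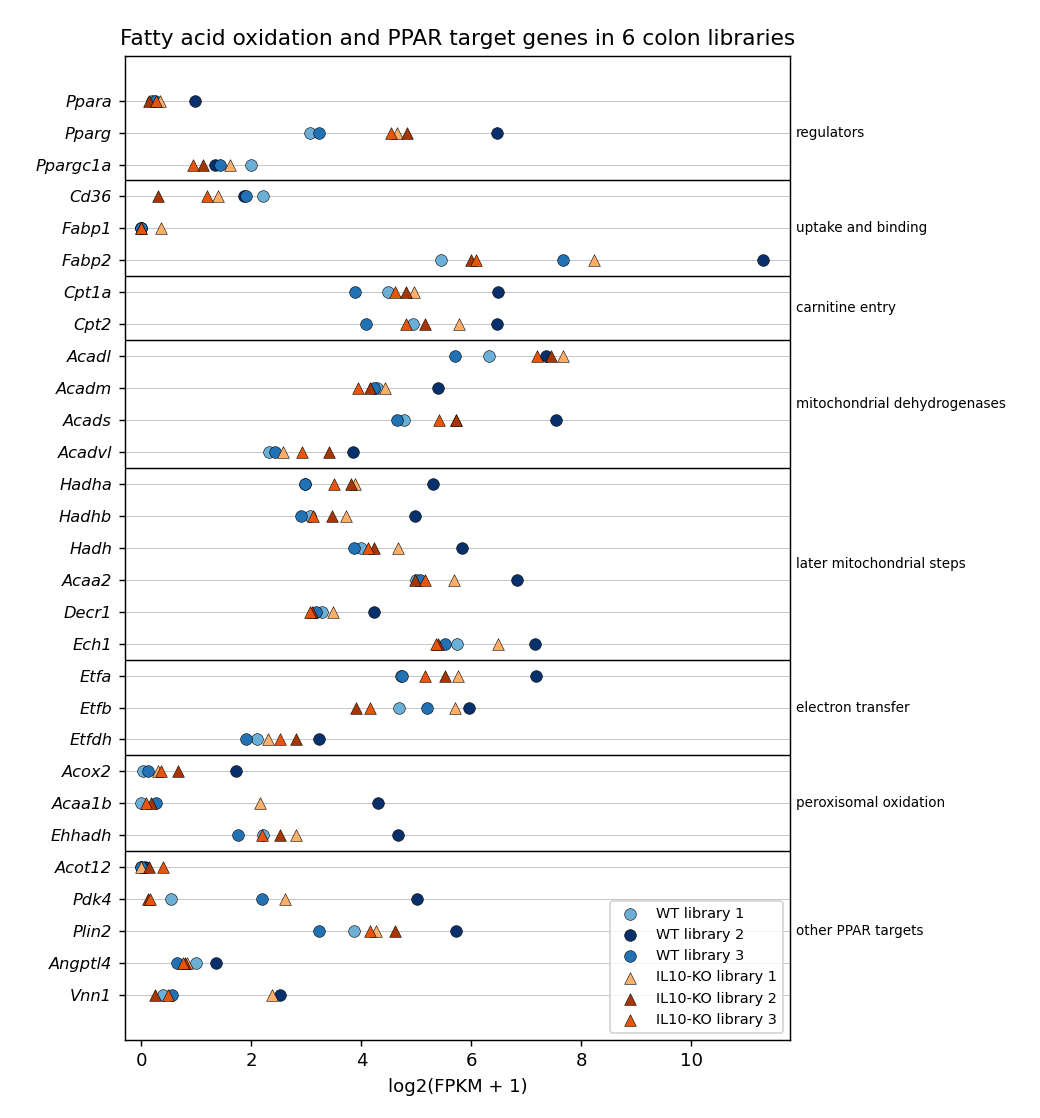
Level of each of the 29 genes in each library, as log2(FPKM + 1) on the horizontal axis, grouped by role; circles are WT and triangles IL10-KO libraries. The dark blue circle of WT library 2 lies farthest right for 24 of the 29 genes, while the triangles mostly lie among or between the circles.

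**Figure D2:**
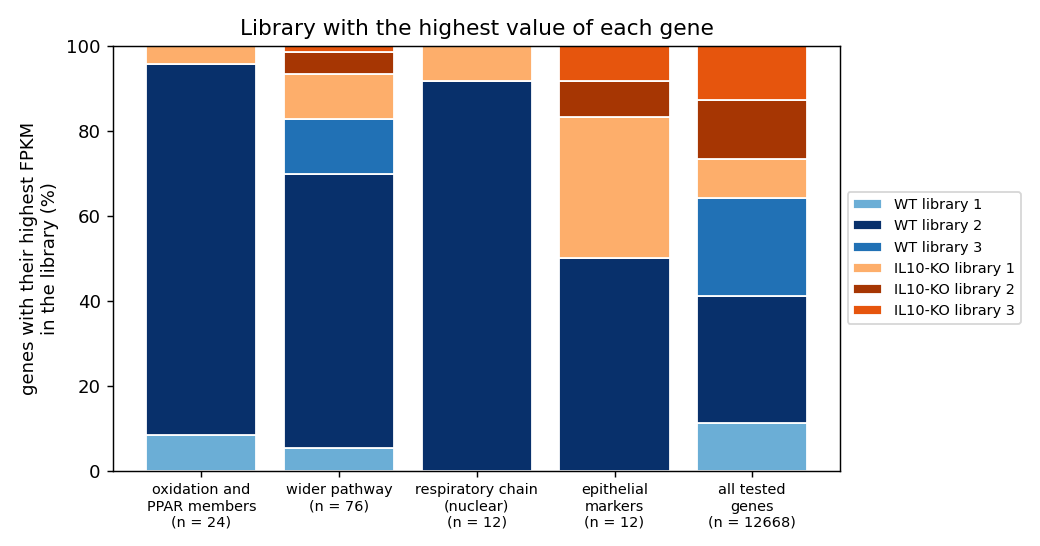
Share of genes (vertical axis, percent) whose highest FPKM was in each library, for the tested members, the wider pathway list, nuclear respiratory chain genes, epithelial markers and all tested genes. WT library 2 takes 87.5% of the members, 91.7% of the respiratory chain genes, 64.5% of the wider pathway, 6 of 12 epithelial markers and 29.9% of all tested genes.

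Among the regulators, Pparg had the widest spread within WT. Pparg (ENSMUSG00000000440; GRCm38 chromosome 6, 115360951 to 115490399), the receptor abundant in colonocytes and adipocytes, measured 7.36, 87.8 and 8.41 FPKM in the WT libraries, in the order 1 to 3 used throughout, and 24.2, 27.5 and 22.2 FPKM in the IL10-KO libraries. The IL10-KO libraries lay close together, above WT libraries 1 and 3 and below WT library 2, so the groups overlapped. Its log2 fold change was 0.42 (SE 0.88, adjusted p = 0.908 in limma). Without WT library 2 it was 1.53 (SE 0.20, adjusted p = 0.0652), the smallest adjusted p of any member in that fit. Ppara, the receptor dominant in liver, was low at 0.0995 to 0.968 FPKM and not tested, with 67 reads over WT and 32 over IL10-KO. Ppargc1a, a coactivator of mitochondrial gene expression, was at 2.99, 1.54 and 1.70 FPKM in WT and 2.07, 1.18 and 0.921 FPKM in IL10-KO, and its log2 fold change was -0.36 (SE 0.29, adjusted p = 0.727 in limma). Ppard, the remaining PPAR and no member, was at 14.1 to 31.5 FPKM in WT and 20.8 to 41.6 FPKM in IL10-KO (log2 fold change 0.42, SE 0.39, adjusted p = 0.77).

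Cd36 was the 1 tested member whose groups did not overlap. Cd36 (ENSMUSG00000002944; GRCm38 chromosome 5, 17781690 to 17888801, minus strand) encodes a fatty acid and lipoprotein scavenger receptor of adipocytes, endothelium, macrophages and enterocytes. It was at 3.62, 2.64 and 2.76 FPKM in WT and at 1.63, 0.230 and 1.30 FPKM in IL10-KO, from 463 reads over WT and 163 over IL10-KO. All 3 IL10-KO libraries were below all 3 WT libraries, IL10-KO library 2 by far the lowest with 13 reads. The log2 fold change was -1.03 (SE 0.33, unadjusted p = 0.0180, adjusted p = 0.403 in limma), and the exact two-sided permutation test gave p = 0.1, the smallest 3 against 3 libraries allow. Groups did not overlap, with IL10-KO lower, for 7.89% of all tested genes, with IL10-KO higher for 8.84%, and in either direction for 16.7%. Without WT library 2 its value was -1.09 and without WT library 3 it was -1.07.

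Summed markers of the cell types named for Cd36 overlapped between the genotypes for each type. The 9 adipocyte markers summed to 28.7 to 48.7 FPKM in WT and 9.52 to 34.7 FPKM in IL10-KO, with Adipoq at 0 reads in WT library 2 and IL10-KO libraries 2 and 3. WT library 2 nevertheless had the highest sum, made up by other genes of the list. The 8 endothelial markers summed to 13.4 to 22.1 FPKM in WT and 10.9 to 18.1 FPKM in IL10-KO, and the 9 macrophage markers, led by Lyz2, to 162 to 455 FPKM in WT and 280 to 590 FPKM in IL10-KO. For the 11 small intestinal enterocyte markers the sums were 23.1 to 130 FPKM in WT and 38.2 to 70.8 FPKM in IL10-KO. IL10-KO library 2, lowest for Cd36, was also lowest for smooth muscle and had the highest macrophage sum. Their part in the Cd36 difference was not tested.

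The fatty acid-binding proteins were at opposite extremes. Fabp2 (ENSMUSG00000023057; GRCm38 chromosome 3, 122895072 to 122899506), the intestinal form, was at 42.5, 2534 and 201 FPKM in WT and at 300.4, 62.6 and 66.7 FPKM in IL10-KO. WT library 2 stood at 38.0 times the median of the other 5 libraries, which themselves spanned 7.07-fold, and the groups overlapped. The log2 fold change of -1.37 had an SE of 1.45 (adjusted p = 0.802 in limma), and it was 0.22 without WT library 2. Fabp1, the liver form and also an intestinal gene, had 2 reads in IL10-KO library 1 and 0 reads in the other 5 libraries, below the 3 reads that a count of 0 allows. Its promoter shown above holds the motif with 1 mismatch.

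At carnitine entry, Cpt1a makes the carnitine ester at the outer mitochondrial membrane and Cpt2 reverses it inside. Cpt1a was at 21.4, 88.6 and 13.7 FPKM in WT and at 30.0, 26.9 and 23.4 FPKM in IL10-KO (log2 fold change -0.16, SE 0.65). Cpt2 was at 29.7, 87.4 and 15.9 FPKM in WT and at 53.6, 34.6 and 26.9 FPKM in IL10-KO (log2 fold change 0.08, SE 0.62). Both were highest in WT library 2 and lowest in WT library 3, so the WT libraries enclosed those of IL10-KO. The muscle form Cpt1b had 2 reads over WT and 6 over IL10-KO. For Slc25a20, the carrier that brings carnitine esters inward, the log2 fold change was 0.90 (SE 0.72, adjusted p = 0.725 in limma).

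The acyl-CoA dehydrogenases, which take the first step of each round for long, medium, short and very long chains, differed in their library orders. Acadl was at 79.2, 163 and 51.4 FPKM in WT and at 202, 173 and 146 FPKM in IL10-KO. It had the largest positive log2 fold change of the tested members, 0.97 (SE 0.47, adjusted p = 0.535 in limma), and WT library 2 was inside the IL10-KO range. A processed pseudogene, Gm15793, overlaps Acadl on the same strand, at up to 2.08 FPKM. Acads, for short chains such as butyrate, was at 26.5, 183.9 and 23.9 FPKM in WT and at 51.5, 51.9 and 41.4 FPKM in IL10-KO, with a log2 fold change of -0.036 (SE 0.76). Here all IL10-KO libraries lay between WT library 2 and the other two. Acadm was at 18.5, 40.8 and 17.7 FPKM in WT and at 20.7, 16.7 and 14.3 FPKM in IL10-KO (log2 fold change -0.46, SE 0.38). For Acadm WT library 2 alone stood out, and the other 5 libraries were within 1.44-fold. Acadvl, at 3.99 to 13.5 FPKM, had a log2 fold change of 0.11 (SE 0.46).

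The later mitochondrial steps were highest in WT library 2 in each of the 6 members. Hadha and Hadhb encode the subunits of the trifunctional protein, and they lie head to head on chromosome 5, with Hadha ending at 30155162 and Hadhb starting at 30155248. Hadha was at 6.85, 38.6 and 6.83 FPKM in WT and at 13.8, 13.03 and 10.3 FPKM in IL10-KO. Hadhb was at 7.36, 30.4 and 6.52 FPKM in WT and at 12.2, 10.04 and 7.72 FPKM in IL10-KO. Both genes put the libraries in the same order, with WT library 2 first, IL10-KO libraries 1 to 3 next and WT library 3 last. The 85 bases between them on GRCm38 (chr5:30155163-30155247, plus strand) are printed as the segment the neighbours share.
Hadha-Hadhb gap: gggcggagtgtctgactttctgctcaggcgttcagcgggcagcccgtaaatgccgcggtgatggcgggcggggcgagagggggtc
Their log2 fold changes were -0.014 (SE 0.63) and -0.21 (SE 0.56). Hadh, the short-chain hydroxyacyl-CoA dehydrogenase, and Acaa2, the mitochondrial thiolase, had log2 fold changes of -0.23 and -0.36. Decr1 and Ech1, the auxiliary enzymes for unsaturated chains, had values of -0.35 and -0.39. Adjusted p in limma was at least 0.773 for all 6.

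Electron transfer genes split into different library orders. Etfa was at 25.2, 143 and 25.8 FPKM in WT and at 53.3, 44.9 and 34.5 FPKM in IL10-KO, while its partner subunit Etfb was at 24.8, 61.0 and 35.8 FPKM in WT and at 51.2, 14.0 and 16.9 FPKM in IL10-KO. For Etfa the IL10-KO libraries lay between WT library 2 and the others, whereas for Etfb IL10-KO libraries 2 and 3 were the lowest of all. The log2 fold changes were -0.065 (SE 0.68) for Etfa and -0.69 (SE 0.56) for Etfb, a difference between genes that was not tested. Etfdh, which passes the electrons to ubiquinone, was at 2.74 to 8.39 FPKM in WT and 3.96 to 6.01 FPKM in IL10-KO (log2 fold change 0.13, SE 0.38).

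Reads of 2 of the 3 peroxisomal members came mostly from single libraries, those of Acaa1b within each genotype and those of Acox2 within WT. Acaa1b, a peroxisomal thiolase, was at 0, 18.8 and 0.197 FPKM in WT and at 3.47, 0.130 and 0.0625 FPKM in IL10-KO, so WT library 2 held 487 of the 492 WT reads and IL10-KO library 1 held 86 of the 92 IL10-KO reads. The near-identical Acaa1a may share its reads. Ehhadh, the bifunctional enzyme and a classical PPAR target, was at 3.64, 24.3 and 2.36 FPKM in WT and at 6.03, 4.76 and 3.60 FPKM in IL10-KO. WT library 2 was 6.68 times the median of the rest, and the other 5 were within 2.55-fold. Acox2, the branched-chain oxidase, had 112 of its 117 WT reads in WT library 2 and was not tested.

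Among the other PPAR targets, Pdk4 and Vnn1 differed most between libraries. Pdk4 (ENSMUSG00000019577; GRCm38 chromosome 6, 5483351 to 5496309), the kinase that shuts pyruvate out of oxidation, was at 0.459, 31.3 and 3.57 FPKM in WT and at 5.12, 0.0906 and 0.122 FPKM in IL10-KO. WT library 2 was at 68.2 times the median of the other 5 libraries. Among those 5 the range was 56.6-fold, with IL10-KO library 1 at the top and IL10-KO libraries 2 and 3 at 5 and 7 reads. The log2 fold change was -1.62 (SE 1.19, adjusted p = 0.698 in limma), the most negative of the members, and it was -0.40 without WT library 2. Vnn1, a pantetheinase, was at 0.308, 4.73 and 0.480 FPKM in WT and at 4.16, 0.184 and 0.406 FPKM in IL10-KO, so 1 library of each genotype stood apart. Plin2, a lipid droplet coat protein, was at 13.6, 51.7 and 8.37 FPKM in WT and at 18.3, 23.4 and 16.8 FPKM in IL10-KO (log2 fold change 0.07, SE 0.62). Angptl4, a secreted inhibitor of lipoprotein lipase, was at 0.565 to 1.57 FPKM in WT and 0.691 to 0.772 FPKM in IL10-KO and was below the filter on level. Acot12, an acyl-CoA thioesterase, had 2 reads over WT and 22 over IL10-KO, 17 of them in IL10-KO library 3.

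Among the library orders of the tested members, 2 forms recurred, and some members had neither. In the first, all 3 IL10-KO libraries lay below WT library 2 and above WT libraries 1 and 3. It held for 10 of the 24 tested members (41.7%), namely Pparg, Cpt1a, Acads, Acadvl, Hadha, Hadhb, Hadh, Etfa, Etfdh and Plin2, against 11.5% of all tested genes. Of the 12 epithelial markers 6 had this order, as did 10 of the 12 nuclear respiratory chain and citrate cycle genes. In the second, WT library 2, WT library 3 and IL10-KO library 1 were the top 3. That held for 5 members (20.8%), namely Fabp2, Etfb, Acaa1b, Pdk4 and Vnn1, against 4.89% of all tested genes. For Acaa1b and Vnn1 the third place of WT library 3 was narrow, at a level below 1 FPKM. Ppargc1a, Cd36, Cpt2, Acadl, Acadm, Acaa2, Decr1, Ech1 and Ehhadh had neither form.

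Of the 7 gut region markers measured, 3 had the second form, namely Hoxb6, Hoxb8 and Osr2, and the other 4 did not, Hoxb13 among them. Hoxb6 was at 1.33, 30.9 and 14.9 FPKM in WT and at 33.4, 0.227 and 1.37 FPKM in IL10-KO, and Hoxb8 at 0.165, 6.84 and 0.998 FPKM in WT and at 7.07, 0.121 and 0.326 FPKM in IL10-KO. Hoxb13, a gene of the most posterior gut, was at 58.4, 0 and 8.52 FPKM in WT and at 25.8, 22.2 and 6.03 FPKM in IL10-KO, so WT library 2 was the 1 library at 0. The Hox genes mark position along the gut, those given with values were singled out from that list after their values were seen, and the part of colon position in the member levels was not tested. Summed surface colonocyte markers, led by Car1 and Guca2a, reached 44058 FPKM in WT library 2 and 10303 FPKM in IL10-KO library 1, against 2293 to 2910 FPKM in the other 4 libraries. Of these 10 markers, 1 had the second form and 2 had the first.

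**Figure D3:**
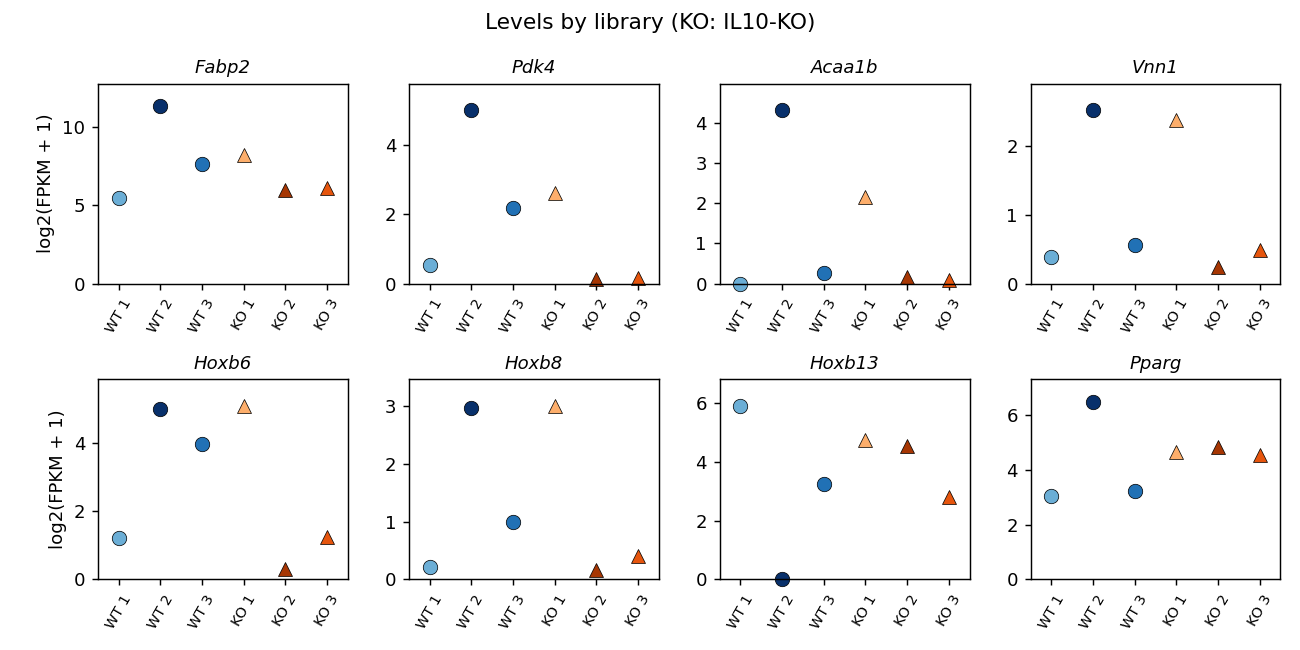
Levels of 8 genes by library, as log2(FPKM + 1) on vertical axes that differ between panels; circles are WT and triangles IL10-KO. Fabp2, Pdk4, Acaa1b, Vnn1, Hoxb6 and Hoxb8 are highest in WT libraries 2 and 3 and IL10-KO library 1, Hoxb13 is at 0 in WT library 2, and the 3 IL10-KO points of Pparg lie between WT library 2 and the other WT points. For Acaa1b and Vnn1 WT library 3 is only slightly above the next library.

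The sign of the genotype difference depended on whether WT library 2 was included for 12 of the 24 tested members. With all libraries 18 of the 24 members had a negative and 6 a positive log2 fold change. Without WT library 2 these numbers were 6 and 18, the median was 0.54 against 0.08 over all tested genes, and 12 members had changed sign. In the same fit the median was 1.49 over the 12 epithelial markers and 0.87 over the 12 respiratory chain and citrate cycle genes. Over the 76 wider pathway genes it was 0.16. With all libraries those medians were 0.86, 0.48 and -0.06. Each epithelial marker and each respiratory chain or citrate cycle gene was positive there as well. Without WT library 2 limma again called 0 members, against 0.205% of all tested genes. In that fit 7 members had an unadjusted p under 0.05 (29.2%, against 23.6% of all tested genes). Of these Pparg, Acadl, Acads, Hadha, Etfa and Plin2 were higher in IL10-KO and Cd36 lower. An unadjusted p under 0.05 was also given to 11 of the 12 epithelial markers and 10 of the 12 respiratory chain and citrate cycle genes. The same held for 19 of the 76 wider pathway genes. Without WT library 3, 23 members had a negative value and 1 a positive one, with a median of -0.56 against 0.009 over all tested genes. Leaving out WT library 1 instead gave the same counts, with a median of -0.50 against 0.02 over all tested genes. WT libraries 1 and 3 had the lowest summed epithelial markers, at 6941 and 2866 FPKM, and the part of this in the values without WT library 2 was not tested.

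**Figure D4:**
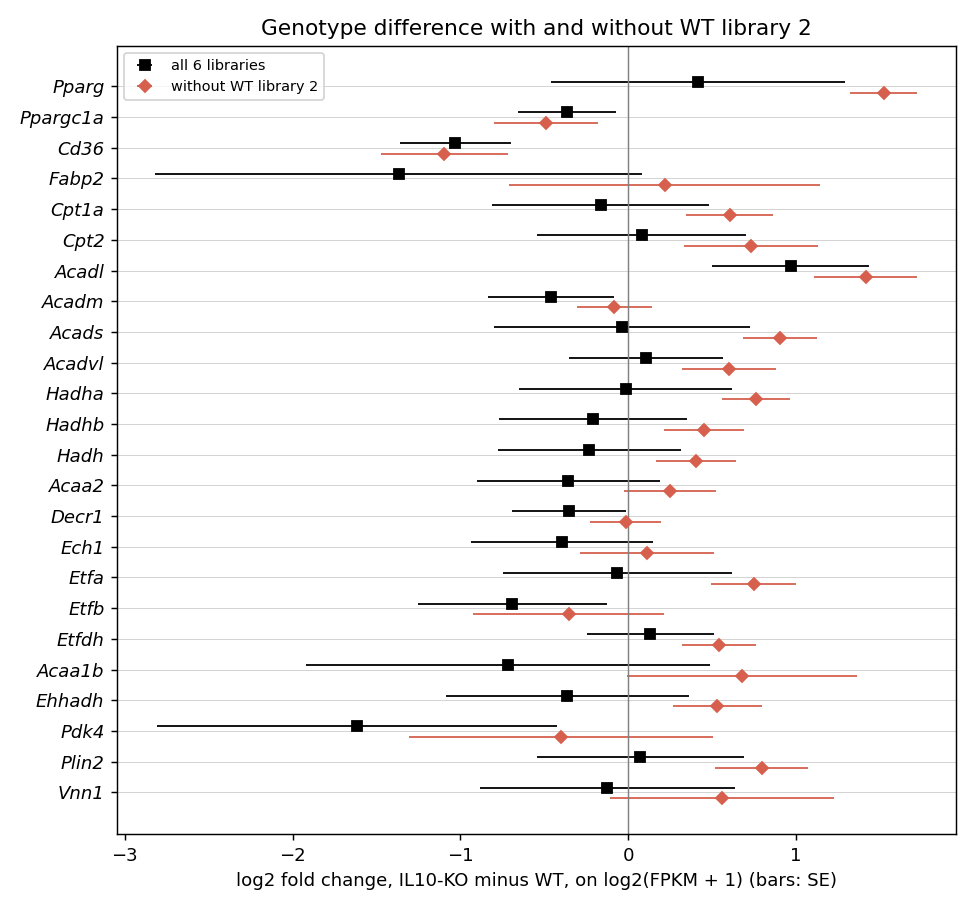
Log2 fold change of the 24 tested members (IL10-KO minus WT, horizontal axis, bars are SE) with all 6 libraries (black squares) and without WT library 2 (red diamonds). Removing that library moves 12 genes, among them Hadha, Acads and Etfa, from the left of 0 to its right and shortens most error bars.

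The wider pathway also held no called gene. Of 98 further genes of PPAR signalling, acyl-CoA synthesis, carnitine shuttling, oxidation, ketone bodies and peroxisomes, 76 were tested. Limma called 0 of them, against 0.182% of all tested genes, and voom called 0, against 0.0158%. In limma 2 had an unadjusted p under 0.05, against 10.2% of all tested genes. Their median log2 fold change was -0.06, with 31 positive and 45 negative values. The smallest p among positive values belonged to Pdk1, a kinase acting on pyruvate dehydrogenase like Pdk4 (log2 fold change 0.89, SE 0.31, adjusted p = 0.436), then to Pex11a, a peroxisome division factor (0.61, adjusted p = 0.467), and Acad9, a complex I assembly factor (0.34, adjusted p = 0.628). Among negative values they were those of Fabp3 (-1.29, adjusted p = 0.517), Acadsb (-0.53, adjusted p = 0.519) and Acsl3, an acyl-CoA synthetase (-1.32, adjusted p = 0.559). Acsl5, the synthetase of the intestinal epithelium, had a log2 fold change of 0.48 (SE 0.33). WT library 2 was highest for 49 of the 76 genes (64.5%). Cyp4a10, Cyp4a31, Cyp4a32, Fgf21 and Acot3 had 0 reads in every library.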

How the data were processed

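RNA came from flash-frozen colon, and the NEBNext Ultra RNA kit was used, per the labels' protocols. The submitters' processing notes list Bowtie 0.12.2, hg38 and mm8 with no role; counting tool and strand setting: not given in the sources used here. The authors deposited FPKM per gene, with gene length in bases per the file headers. GENCODE M21 (GRCm38) had identical coordinates for 26 of the 29 members, so that build is named. FPKM times length gave whole multiples of 1 step per library for 100% of values (tolerance 0.01), used as reads.

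Log2(FPKM + 1) of the 12668 genes averaging 1 FPKM or more was tested with limma 3.58.1 in R 4.3.3 (eBayes with trend, Benjamini-Hochberg over all tested genes, threshold 0.05), checked on simulated data. Groups came from sample titles. The members and lists were chosen with earlier results of these data known. Named genes were all members, chosen wider pathway genes and its 3 smallest p per direction; some chosen genes are not reported here. Hox genes, Gapdh, genes at 0 reads and the library orders were singled out after values were seen. Read floors cover counting error only. A planned protein comparison was not run. Alternatives covered scaling, pseudocount, filter, weights, block, voom and left-out libraries.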

Additional observations from a re-analysis of the deposited data

How the results depend on the processing

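Over 20 alternatives, 0 members and 0 wider pathway genes were called; the smallest adjusted p of a member was 0.0652 (Pparg without WT library 2). Of 24 members, 6 kept their sign in every alternative that tested them. The median over members lay between -0.28 and -0.14 for scalings, pseudocounts, filters, voom and the other fits of all 6 libraries with equal weight, was 0.26 with a weight per library and 0.40 without WT libraries 2 and 3 together, and ranged from -0.56 to 0.54 when 1 library was left out. TPM moved the median of all genes to 0.15. The replicate block called 7 genes higher; same-numbered libraries share only a number (their deviations from group means correlated at -0.149, 0.180 and 0.396), and no member was called under the block. The 23 genes called higher became 9 with a pseudocount of 0.01, 4 with no filter, 44 with TPM, 237 with a weight per library, 2 with voom and 5 without WT libraries 2 and 3, a fit in which WT library 1 stands alone and is assumed to vary like the others. Leaving out 1 library gave 4 to 27. The 0 called lower became 1 at a mean FPKM of at least 5, 2 with TPM, 1 with quantile normalization, 94 with a weight per library and 1 without WT libraries 2 and 3. Leaving out 1 library gave 0 to 3.

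Signs that changed were as follows, and beyond the libraries and weights used the cause was not tested. Hadha was 0.012 and 0.016 with pseudocounts of 0.1 and 0.01, 0.0032 with voom, 0.10 with TPM and 0.033 with quantile normalization. TPM gave Acads 0.077 and Etfa 0.046, and quantile normalization gave Cpt2 -0.064. A weight per library, with 0.198 for WT library 2 against 2.76 for WT library 1, gave Acaa1b 0.26, Acaa2 0.068, Acads 0.71, Cpt1a 0.26, Ehhadh 0.20, Etfa 0.60, Fabp2 0.38, Hadh 0.19, Hadha 0.63, Hadhb 0.26 and Vnn1 0.20. Without WT libraries 2 and 3 the values were 0.81 for Acaa1b, 0.29 for Acaa2, 0.83 for Acads, 0.30 for Cpt1a, 0.0030 for Ech1, 0.30 for Ehhadh, 0.77 for Etfa, 1.33 for Fabp2, 0.34 for Hadh, 0.76 for Hadha, 0.38 for Hadhb, 0.42 for Pdk4 and 0.65 for Vnn1. With 1 library left out, values ranged from -1.48 to 0.68 for Acaa1b, -0.68 to 0.25 for Acaa2, -0.54 to 0.90 for Acads, -0.17 to 0.60 for Acadvl, -0.70 to 0.61 for Cpt1a and -0.46 to 0.73 for Cpt2. They ranged from -0.76 to 0.11 for Ech1, -0.92 to 0.53 for Ehhadh, -0.48 to 0.75 for Etfa, -0.12 to 0.54 for Etfdh, -2.71 to 0.22 for Fabp2, -0.58 to 0.40 for Hadh, -0.40 to 0.76 for Hadha and -0.58 to 0.45 for Hadhb. For Plin2 the range was -0.45 to 0.80, for Pparg -0.18 to 1.53 and for Vnn1 -0.79 to 0.56.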
